A study of Mus musculus with 11 samples.

Results

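The 8 genes described here encode enzymes that build cholesterol. They were taken by symbol from a fixed list (Hmgcs1, Mvd, Idi1, Fdps, Fdft1, Sqle, Lss and Dhcr7), and all 8 were found among the 46078 gene identifiers counted in each of 11 RNA sequencing libraries of mouse embryonic brain, all from CD-1 embryos. All 8 were tested in each of 3 comparisons. At E15.5 (an embryonic day), 3 libraries came from wild-type embryos electroporated in utero at E12.5 with the GFP plasmid pCIG2, and 3 came from wild-type embryos electroporated with pCIG2-L3mbtl3, which also carries L3mbtl3. L3mbtl3 encodes a chromatin reader with MBT domains. Both E15.5 groups are GFP-positive brain cells collected by flow sorting, so they hold only cells that still carried the plasmid signal, and the labels do not name the promoter of the plasmid. At E12.5, 5 libraries came from microdissected dorsal telencephalon, the part of the forebrain that forms the neocortex: 2 labelled L3mbtl3 +/-, 2 labelled L3mbtl3 -/- and 1 labelled wild-type. Another experiment named in the series' design was not analysed here. The labels do not tie the libraries of a group to different embryos. Sex read from the counts differed within the gain group and within the L3mbtl3 -/- group, so not all libraries there share an embryo. For the other groups this is not known, and the spread on which the p-values rest may be technical in part.

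Cholesterol is built from acetyl-CoA along a long chain of enzymes. The early steps make mevalonate and then the isoprenoid building blocks, which are also used for protein prenylation, dolichol and ubiquinone. Squalene synthase then commits the flow to sterols, squalene is closed into lanosterol, and the last steps remove methyl groups and reduce double bonds to give cholesterol. The genes of the chain are classic targets of the transcription factor SREBP2, which is released from the endoplasmic reticulum when membrane sterol is low. Plasma cholesterol hardly crosses the blood-brain barrier, so the developing brain depends largely on its own synthesis.

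Hmgcs1 and Mvd were called in opposite directions between stages, though the Hmgcs1 call was lost in several fits. Lss was the member called in the libraries labelled knockout. Since SREBP2 acts at promoters, the stretches before the transcription start are shown for these genes. Each is the 250 bases before the start annotated by RefSeq (GRCm38.p6), written 5′ to 3′ on the gene's strand. Capitals mark CCAAT, its complement ATTGG, and, in Hmgcs1, 1 match to TCACNCCAC, a letter form of the sterol regulatory element.
Hmgcs1, chr13:119690101-119690350, plus strand: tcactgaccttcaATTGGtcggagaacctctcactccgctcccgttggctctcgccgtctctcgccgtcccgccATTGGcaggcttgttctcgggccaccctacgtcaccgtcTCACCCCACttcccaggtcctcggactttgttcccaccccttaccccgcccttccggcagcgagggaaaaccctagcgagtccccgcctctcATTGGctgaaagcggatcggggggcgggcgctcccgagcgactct
Mvd, chr8:122443423-122443672, minus strand: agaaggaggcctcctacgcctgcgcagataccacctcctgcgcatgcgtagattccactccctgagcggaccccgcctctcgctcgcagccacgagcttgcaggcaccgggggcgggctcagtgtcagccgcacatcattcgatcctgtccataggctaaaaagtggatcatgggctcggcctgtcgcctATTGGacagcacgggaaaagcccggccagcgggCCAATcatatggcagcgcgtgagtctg
Lss, chr10:76531355-76531604, plus strand: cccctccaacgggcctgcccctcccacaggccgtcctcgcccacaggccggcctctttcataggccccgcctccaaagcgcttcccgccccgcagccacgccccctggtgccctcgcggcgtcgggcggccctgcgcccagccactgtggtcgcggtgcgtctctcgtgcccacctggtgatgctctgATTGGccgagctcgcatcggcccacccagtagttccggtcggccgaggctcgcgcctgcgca

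The RefSeq promoter table used here held 5 of the 8 genes (Hmgcs1, Mvd, Idi1, Lss and, with several starts, Dhcr7). On either strand, TCACNCCAC was found before 1 of these 5 genes, Hmgcs1, where it began 137 bases before the start, and it occurred in 1.05% of 32851 mouse promoter stretches of the same length. CCAAT occurred in 33.8% of those stretches. It was found 3 times in Hmgcs1, 2 times each in Mvd and Idi1, and 1 time in Lss. In Dhcr7 it was found 2 times in the stretch that begins at chr7:143829964 and 0 times before the other starts. GGGCGG, the core of the GC box, occurred in 32.7% of stretches. It was found 2 times in Hmgcs1, 1 time in Mvd, 1 time in Idi1 and 2 times in Lss. The Dhcr7 stretches that begin at chr7:143829964, 143822917 and 143823149 held it 3, 1 and 0 times. None of these matches in Hmgcs1, Mvd, Idi1 and Lss overlapped a match to another motif. A match is a description of letters and not a site of binding, and a window without a match says only that these letters are not in it.

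The counts of 3 of the genes could be shared with copies elsewhere. In GENCODE M21, 76.8% of the Fdps transcript matched other loci at 95% identity or more over at least 75 bases, and all 5 of those loci were annotated as processed pseudogenes. The nearest copy, Gm3571, was 98.87% identical and held 1796 counts summed over the 11 libraries. Fdps held 128 to 235 counts in each single library, and its sum over the 11 libraries was close to that of Gm3571. Of the 4208 joined exon bases of Fdps, 26.7% lay within Gm43738 on the same strand. Fdft1 matched 1 pseudogene over 33.7% of its transcript, and Idi1 matched 2 over 22.6%. These copies held few counts (27 for Gm6781, the copy of Fdft1, and 52 and 0 for Gm13502 and Gm35570, the copies of Idi1). Few counts at a copy do not show how many reads the gene itself lost. The levels of Fdps are therefore uncertain, and those of Fdft1 and Idi1 carry the same doubt over a smaller part of their transcripts. Hmgcs1, Mvd, Sqle, Lss and Dhcr7 had no such match.

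Libraries held 16527551 to 26658718 counts. Levels are given as CPM, read counts per 1000000 counts of the library, with TMM scaling factors over all 11 libraries. By library totals without these factors, the floor of 3 counts corresponded to 0.1125 to 0.1815 CPM, far below each of the 8 genes. L3mbtl3 itself was at 50.3 to 60 CPM in the GFP controls and at 898 to 1517 CPM in the gain libraries. It was at 55.8 to 58.3 CPM in the E12.5 controls and at 67.2 and 70.5 CPM in the 2 libraries labelled knockout, so total L3mbtl3 counts did not separate that label by a loss of RNA. These are called the libraries labelled knockout throughout. By Xist and Ddx3y, gain replicates 1 and 3 and knockout replicate 2 came from females and the other 8 libraries from males. Summed markers of cortical neurons (8 of 8 detected) were 7609 to 11327 CPM at E15.5 and 1993 to 2599 CPM at E12.5, and those of apical progenitors (9 of 9 detected) were 635 to 1811 CPM and 2842 to 3124 CPM. The E12.5 tissue also held erythroid markers (2320 to 3023 CPM, against 23.5 to 128 CPM at E15.5), meningeal and mesenchymal markers (1581 to 2026 CPM, against 2.74 to 60.0 CPM) and endothelial markers (411 to 490 CPM, against 6.04 to 22.5 CPM). In bulk samples, fewer cells of a type and less RNA per cell cannot be told apart.

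**Figure D1:**
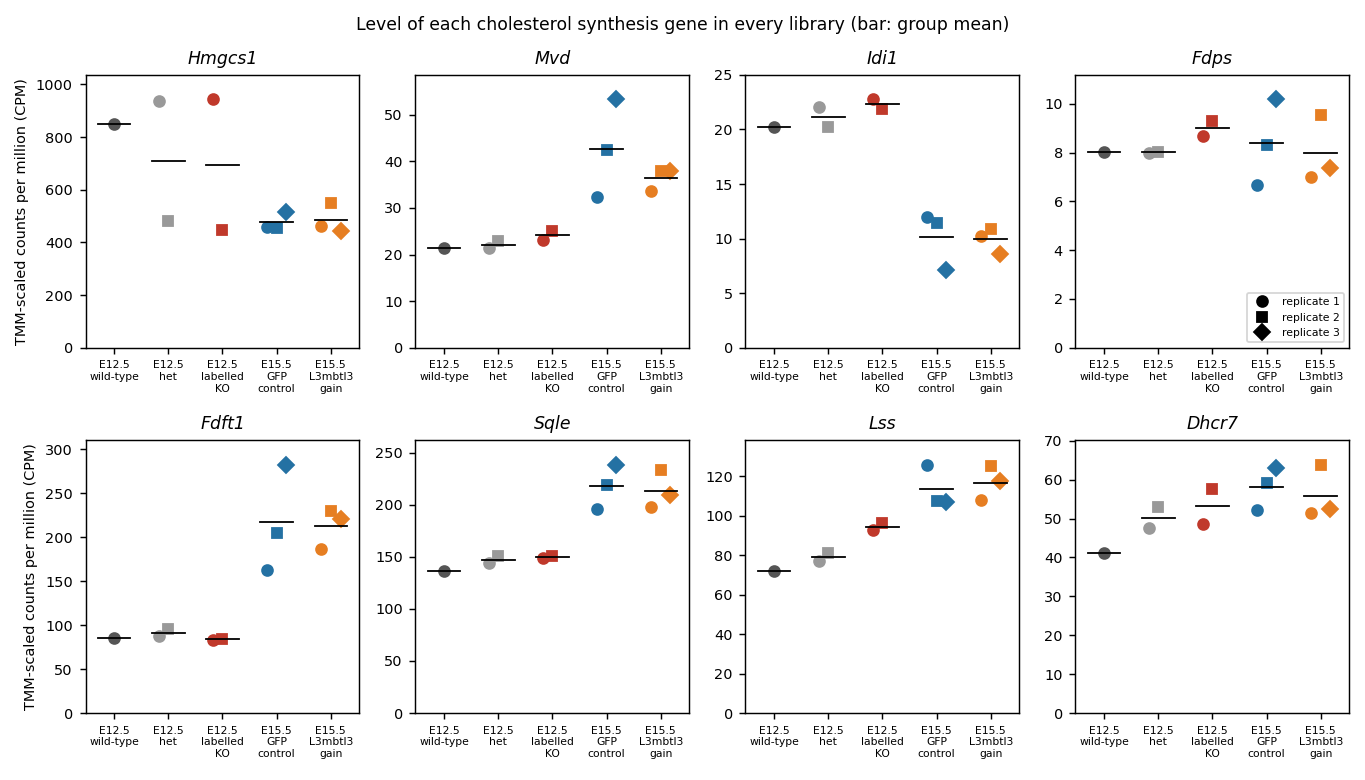
Level of each of the 8 genes in each of the 11 libraries, as TMM-scaled CPM on linear axes from 0, by group. Points are libraries, shaped by replicate number, and bars are group means. Mvd, Fdft1, Sqle and Lss lie higher in all 6 E15.5 libraries than in all 5 E12.5 libraries, Idi1 lies lower, and Hmgcs1 divides the E12.5 libraries into 3 high and 2 low ones.

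Per kilobase of exon, Hmgcs1 was the highest of the 8 genes and Fdps the lowest at both ages. Over the 5 E12.5 libraries, Hmgcs1 stood at 226 ± 76.5 CPM per kb (SD, n = 5). Fdft1 followed at 30.4 ± 1.66 and Sqle at 26.3 ± 1.10 CPM per kb. Dhcr7 at 13.1 ± 1.65 and Mvd at 12.9 ± 0.867 CPM per kb did not differ beyond their spread. Lss (7.76 ± 0.964), Idi1 (6.11 ± 0.324) and Fdps (2.00 ± 0.137 CPM per kb) closed the order. Over the 6 E15.5 libraries, Hmgcs1 stood at 149 ± 13.1 and Fdft1 at 74.9 ± 14.3 CPM per kb (SD, n = 6). Sqle followed at 38.9 ± 3.21 CPM per kb. Mvd at 22.5 ± 4.32 then ranked above Dhcr7 at 15.1 ± 1.51 CPM per kb, and Lss was at 10.7 ± 0.829 CPM per kb. Idi1 at 2.87 ± 0.530 and Fdps at 1.95 ± 0.339 CPM per kb were the lowest. These orders use the exon lengths of the deposited tables, which join all annotated exons of a gene. A gene with long rarely used exons, such as Lss with 10787 exon bases, is therefore placed low. The places of Fdps, Fdft1 and Idi1 also carry the doubt about counts shared with copies, Fdps most of all.

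The widest contrast in the series sets the 3 GFP controls at E15.5 against the 3 E12.5 controls (2 heterozygotes and the wild-type). Stage, sorting, plasmid and dissection change together in it and cannot be told apart. Between them 4 of the 8 genes were higher at E15.5 and 2 were lower, with edgeR's quasi-likelihood test at a Benjamini-Hochberg adjusted p under 0.05. In the same contrast 62.3% of 15968 genes passed, 31.1% higher and 31.3% lower, so a count of 6 of 8 is near the background. Fdft1, Sqle and Lss, which follow each other from farnesyl diphosphate to lanosterol, rose, as did Mvd of the mevalonate arm. Hmgcs1 and Idi1 of the same arm fell, and Fdps and Dhcr7 did not pass. The Hmgcs1 call was lost in several other fits, given below. The median log2 fold change of the 8 genes was 0.44, against -0.0250 for all genes. Scaling by library totals alone moved the median of all genes to -0.296, the share of higher calls among all calls from 49.9% to 35.5%, and the median of the 8 genes to 0.17, and left the 4 rises and 2 falls called.

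Hmgcs1 encodes the cytosolic HMG-CoA synthase, which makes the precursor of mevalonate (Hmgcs1, ENSMUSG00000093930, chr13:119690462-119708086, plus strand). It stood at 459.8, 453.1 and 515.1 CPM in the GFP controls. In the E12.5 controls it stood at 937.8 and 482.4 CPM in the heterozygotes and 849.7 CPM in the wild-type. The groups overlapped, since heterozygote 2 lay between the GFP controls. The fit gave a log2 fold change of -0.66 (SE 0.24, adjusted p = 0.0460). The call was lost without GFP control 1 (-0.65, adjusted p = 0.0783), without GFP control 2 (-0.62, adjusted p = 0.135), without heterozygote 1 (-0.49, adjusted p = 0.149) and without the wild-type (-0.57, adjusted p = 0.139), and without heterozygote 2 the fold change was -0.91 (adjusted p = 0.00236).

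Mvd encodes mevalonate diphosphate decarboxylase, which makes isopentenyl diphosphate (Mvd, ENSMUSG00000006517, chr8:122433596-122443422, minus strand). It stood at 32.4, 42.4 and 53.3 CPM in the GFP controls and at 21.4, 22.8 and 21.4 CPM in the E12.5 controls. The groups did not overlap, and the GFP controls spread far more widely than the E12.5 controls. Mvd rose 1.96-fold (log2 0.97, SE 0.19, adjusted p = 0.00389).

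Idi1 encodes isopentenyl diphosphate isomerase, which converts that product into the primer of isoprenoid chains (Idi1, ENSMUSG00000058258, chr13:8885501-8892451, plus strand). It stood at 11.98, 11.45 and 7.084 CPM in the GFP controls and at 22.0, 20.3 and 20.2 CPM in the E12.5 controls. The GFP controls were all lower, with GFP control 3 the lowest. Idi1 fell to 0.489 of the E12.5 level (log2 -1.03, SE 0.21, adjusted p = 0.00511), so the enzymes on either side of isopentenyl diphosphate moved in opposite directions. Fdps encodes farnesyl diphosphate synthase (Fdps, ENSMUSG00000059743, chr3:89093588-89101959, minus strand) and stood at 6.69, 8.30 and 10.2 CPM in the GFP controls and at 7.99, 8.05 and 8.02 CPM in the E12.5 controls. The 3 E12.5 values lay inside the range of the GFP controls, and the log2 fold change was 0.07 (SE 0.19, adjusted p = 0.769).

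Fdft1 encodes squalene synthase, which commits farnesyl diphosphate to sterols (Fdft1, ENSMUSG00000021273, chr14:63145153-63177793, minus strand). It stood at 163.0, 204.6 and 282.3 CPM in the GFP controls and at 87.1, 95.2 and 85.0 CPM in the E12.5 controls. The lowest GFP control was well above the highest E12.5 control. Fdft1 had the largest change of the 8 genes, 2.44-fold (log2 1.29, SE 0.20, adjusted p = 0.00156).

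Sqle encodes squalene epoxidase, a rate-limiting oxygen-dependent step (Sqle, ENSMUSG00000022351, chr15:59315077-59331192, plus strand). It stood at 195.9, 219.5 and 238.7 CPM in the GFP controls and at 144.0, 150.6 and 136.3 CPM in the E12.5 controls, without overlap, and rose 1.52-fold (log2 0.61, SE 0.10, adjusted p = 0.00170). Lss encodes lanosterol synthase, which closes the sterol rings (Lss, ENSMUSG00000033105, chr10:76531588-76557138, plus strand). It stood at 125.8, 107.3 and 107.0 CPM in the GFP controls and at 76.8, 81.1 and 71.8 CPM in the E12.5 controls, and rose 1.48-fold (log2 0.57, SE 0.09, adjusted p = 0.00214). Dhcr7 encodes the reductase that turns 7-dehydrocholesterol into cholesterol (Dhcr7, ENSMUSG00000058454, chr7:143823145-143848410, plus strand). It stood at 52.1, 59.1 and 62.9 CPM in the GFP controls and at 47.5, 52.9 and 41.1 CPM in the E12.5 controls, with ranges that overlapped, and its log2 fold change of 0.31 (SE 0.12, adjusted p = 0.0690) did not pass, though it did without GFP control 1 (0.37, adjusted p = 0.0256).

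**Figure D2:**
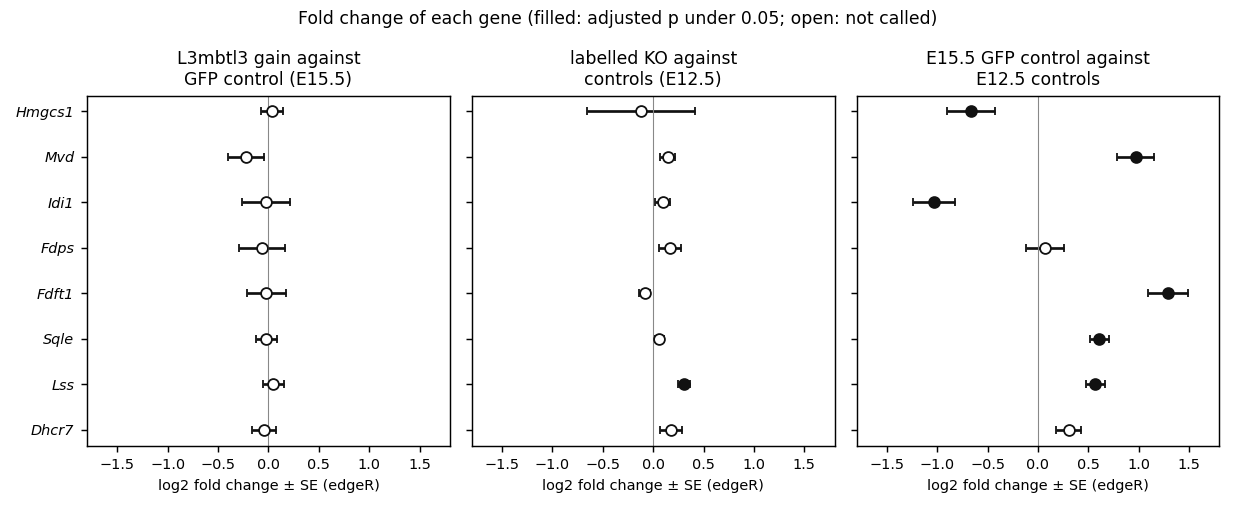
Log2 fold change ± SE of each of the 8 genes in the 3 comparisons, from edgeR; filled points had an adjusted p under 0.05. No gene is filled for L3mbtl3 gain, only Lss is filled for the libraries labelled knockout, and 6 genes are filled between E15.5 and E12.5 controls.

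The 3 GFP controls were not alike in these genes. GFP control 3 had the highest level of 6 of the 8 genes in that group, Fdft1 (282.3 CPM) and Mvd (53.3 CPM) among them, and the lowest Idi1 (7.084 CPM) and Lss (107.0 CPM). It also had the highest summed cortical neuron markers, 11327 CPM against 7609 and 9167 CPM, and the lowest apical progenitor markers, 635 CPM against 1811 and 1340 CPM. In GFP control 1, with the lowest neuron markers and the highest progenitor markers, Fdft1 (163.0 CPM) and Mvd (32.4 CPM) were the lowest and Idi1 (11.98 CPM) the highest of the group. GFP control 1 also held the most ventral telencephalon and GABAergic markers (9 genes), 897 CPM against 301 and 25.8 CPM. The part of cell makeup in the stage contrast was not tested. The 4 rises and the fall of Idi1 were called without GFP control 3 and without each other library in turn. In those fits the log2 fold change was 1.05 to 1.45 for Fdft1, 0.78 to 1.13 for Mvd, 0.54 to 0.68 for Sqle, 0.49 to 0.62 for Lss and -1.17 to -0.83 for Idi1.

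The loss comparison asks what changed in E12.5 dorsal telencephalon labelled L3mbtl3 -/-. It set those 2 libraries against the 3 E12.5 controls, which are also used in the stage contrast. Of the 8 genes, Lss alone rose and none fell, where 3.63% of 16361 genes rose, 3.78% fell and 7.41% were called in all. Lss stood at 92.8 and 96.1 CPM in the libraries labelled knockout, above each control (76.8, 81.1 and 71.8 CPM). The rise was 1.24-fold (log2 0.31, SE 0.06, adjusted p = 0.00688). It was called without each of the 5 libraries in turn (log2 0.26 to 0.35, highest adjusted p = 0.0347) and was lost when all 11 libraries shared 1 estimate of the spread (adjusted p = 0.822). Summed markers also differed between the groups without overlap. Choroid plexus markers were 260 and 263 CPM in the libraries labelled knockout against 546 to 621 CPM, cortical neuron markers 1993 and 2181 against 2309 to 2599 CPM, intermediate progenitor markers (4 genes) 474 and 505 against 574 to 608 CPM, and ventral and GABAergic markers 115 and 138 against 73.8 to 102 CPM. The part of these cell markers in the loss results was not tested.

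Lss lies on chromosome 10, as L3mbtl3 does, 50.2 Mb away. On that chromosome 9.95% of 744 tested genes were called, against 7.41% of all genes. The other chromosomes ran from 4.45% (chromosome 17) to 9.48% (chromosome 6). Within 10 Mb of Lss 7.3% of 233 were called, and within 10 Mb of L3mbtl3 12% of 83, which is 10 genes. Whether sequence linked to the targeted allele has a part in the Lss result was not tested.

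The other 7 genes did not pass in the loss comparison. Mvd stood at 23.1 and 25.1 CPM, above its controls, with a log2 fold change of 0.14 (SE 0.07, adjusted p = 0.274). Fdps stood at 8.68 and 9.31 CPM, also above its controls (log2 0.17, SE 0.11, adjusted p = 0.404). Dhcr7 stood at 48.6 and 57.7 CPM and overlapped its controls (log2 0.18, SE 0.11, adjusted p = 0.414). Fdft1 stood at 83.3 and 84.7 CPM, just below the lowest control at 85.0 CPM (log2 -0.08, SE 0.05, adjusted p = 0.426). Sqle at 148.8 and 150.5 CPM and Idi1 at 22.8 and 21.9 CPM overlapped their controls, with log2 fold changes of 0.06 (SE 0.04, adjusted p = 0.474) and 0.10 (SE 0.07, adjusted p = 0.509). The median of the 8 genes was 0.12, against -0.000173 for all genes, and 6 of the 8 had a positive value.

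Hmgcs1 stood apart from the other 7 genes among the E12.5 libraries. It was at 943.2 CPM in knockout 1 and 445.9 CPM in knockout 2, and at 937.8 CPM in heterozygote 1, 482.4 CPM in heterozygote 2 and 849.7 CPM in the wild-type. The 5 libraries thus fell into 3 high and 2 low ones, and each labelled genotype with 2 libraries had one of each. The division follows the replicate number of the titles: the 3 high libraries are numbered 1 and the 2 low ones are numbered 2. With the replicate number as a block, the Hmgcs1 fold change in the loss comparison was -0.000301 with an SE of 0.0560. The raw counts were 27568, 21297 and 18532 in the high libraries and 8807 and 10489 in the low ones, so counting error is small beside the gap. The log2 fold change in the loss comparison was -0.12 with an SE of 0.54 (adjusted p = 0.940), and it was 0.32 without knockout 2 and 0.06 without heterozygote 1. The highest Hmgcs1 value was 2.12 times the lowest, against 1.10 to 1.41 times for the other 7 genes. On the log2 scale Hmgcs1 spanned 1.08, a range that 12.2% of 17793 genes reached or passed in the same libraries, while the other 7 spanned 0.144 to 0.490. That share was taken over genes of all levels and was not matched to the high counts of Hmgcs1. Heterozygote 2 came from a male and knockout 2 from a female, and the sums of the other 7 genes in these 2 libraries (430.9 and 445.3 CPM) were the highest of the E12.5 libraries, against 383.8 to 428.1 CPM. At E15.5 Hmgcs1 spanned 0.312 on the log2 scale over 6 libraries and showed no such division.

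**Figure D3:**
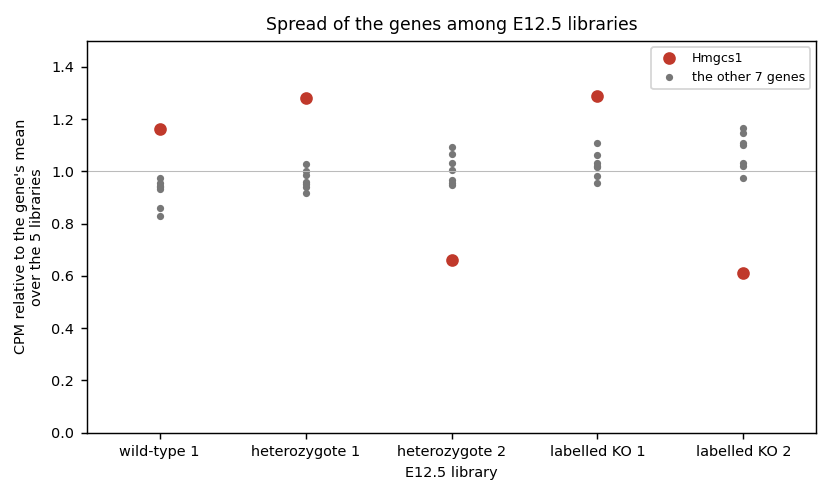
Level of each gene in each E12.5 library, as CPM divided by the gene's own mean over the 5 libraries. Hmgcs1 is in red and the other 7 genes are in grey; Hmgcs1 lies above its mean in the wild-type, heterozygote 1 and knockout 1 and far below it in heterozygote 2 and knockout 2, where none of the other 7 genes lies as far from its mean.

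The gain comparison asks what changed in sorted E15.5 cells that carried extra L3mbtl3, against the same GFP controls that enter the stage contrast. None of the 8 genes passed, where 0.0136% of 14698 genes (2 genes) passed, 0.00680% higher and 0.00680% lower, and 1264 had an unadjusted p under 0.05. With DESeq2 122 genes passed, and none of the 8 was among them. The 8 log2 fold changes ran from -0.22 to 0.05 with a median of -0.0244, against -0.0301 for all genes. Mvd had the largest of them, with 33.6, 37.9 and 37.8 CPM in the gain libraries against 32.4, 42.4 and 53.3 CPM in the GFP controls (log2 -0.22, SE 0.18, adjusted p = 0.696). The gain libraries of Mvd all lay within the range of the GFP controls.

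Hmgcs1 stood at 463.9, 550.5 and 443.3 CPM in the gain libraries (log2 0.04, SE 0.11, adjusted p = 0.915). Fdft1 stood at 186.2, 229.4 and 220.6 CPM (log2 -0.02, SE 0.20, adjusted p = 0.971), within the range of the GFP controls. Idi1 stood at 10.28, 10.91 and 8.63 CPM (log2 -0.03, SE 0.24, adjusted p = 0.973) and Fdps at 7.01, 9.56 and 7.36 CPM (log2 -0.07, SE 0.23, adjusted p = 0.925). Sqle stood at 198.1, 233.1 and 209.8 CPM (log2 -0.02, SE 0.10, adjusted p = 0.946) and Lss at 107.7, 125.0 and 117.3 CPM (log2 0.05, SE 0.11, adjusted p = 0.881). Dhcr7 stood at 51.4, 63.9 and 52.4 CPM (log2 -0.05, SE 0.12, adjusted p = 0.898). All 8 genes overlapped between the groups, and a p that misses the threshold does not show that the levels were equal. Fdft1, Mvd and Idi1 spread less among the gain libraries than among the GFP controls (SDs of 22.8 against 60.6 CPM, 2.45 against 10.4 CPM and 1.18 against 2.68 CPM, n = 3 each). Sqle (17.8 against 21.5 CPM), Lss (8.69 against 10.8 CPM) and Fdps (1.38 against 1.75 CPM) spread slightly less. Hmgcs1 (56.9 against 34.0 CPM) and Dhcr7 (6.92 against 5.49 CPM) spread more. The neuron markers spread less (9047 to 9101 CPM against 7609 to 11327 CPM). The difference in spread was not tested. Over all genes of this comparison the log2 fold change ranked with exon length (Spearman rho = 0.263 across 14698 genes, which are not independent replicates), where the loss comparison gave 0.00604. Its part in these values was not tested.

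The other enzymes before squalene were described from a list of 7, of which 6 were tested (Idi2 was at 0 in each library). Between E15.5 and E12.5 controls 4 of 6 rose and none fell, with a median of 0.32. Over all genes 31.1% rose and 31.3% fell between stages, 3.63% rose and 3.78% fell for loss, and 0.0136% passed for gain. Acat1, which encodes the mitochondrial thiolase, rose 1.89-fold (log2 0.92, SE 0.14, adjusted p = 0.00144). Acat1 stood at 185.0, 219.6 and 264.6 CPM in the GFP controls and at 112.8, 117.6 and 125.5 CPM in the E12.5 controls, without overlap. Acat2, the cytosolic thiolase, did not pass (log2 0.14, SE 0.14, adjusted p = 0.409). Scaled by library totals, 1 of 6 rose, and the kinases Mvk and Pmvk were no longer called. Mvk (0.33) and Pmvk (0.30) also lost their calls without single libraries, Mvk without heterozygote 1 (adjusted p = 0.0806), heterozygote 2 (adjusted p = 0.0947) or the wild-type (adjusted p = 0.107), and Pmvk without those (adjusted p = 0.0797, 0.111 and 0.123) or GFP control 2 (adjusted p = 0.0836). In the libraries labelled knockout, Acat1 fell (102.0 and 95.18 CPM against 112.8, 117.6 and 125.5 CPM; log2 -0.27, SE 0.06, adjusted p = 0.0150) and the other 5 did not pass. That call was lost without heterozygote 2 (adjusted p = 0.0505), without knockout 2 (adjusted p = 0.0862) and without the wild-type (adjusted p = 0.0654). With L3mbtl3 gain 0 of 6 passed, with Mvk at -0.20 (adjusted p = 0.628) and Acat1 at -0.19 (adjusted p = 0.659) closest to it.

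Of 10 other enzymes after lanosterol, 5 rose and 2 fell between E15.5 and E12.5 controls, with a median of 0.25. The shares over all genes were 31.1% higher and 31.3% lower. The 2 genes that share the sterol C-14 reductase step moved in opposite directions. Tm7sf2 rose 2.17-fold, from 18.68 and 17.91 CPM in the heterozygotes and a lower level in the wild-type to 33.71, 34.22 and 44.63 CPM (log2 1.12, SE 0.15, adjusted p = 0.000939). Lbr, which is also a receptor for lamin B in the nuclear envelope, fell to 0.341 of the E12.5 level, from 165.6, 157.9 and 162.8 CPM to 81.21, 47.51 and 36.35 CPM (log2 -1.55, SE 0.28, adjusted p = 0.00292). Sc5d rose 1.57-fold and Ebp, the X-linked sterol isomerase, fell to 0.669, a call lost without heterozygote 1 (adjusted p = 0.0597) or heterozygote 2 (adjusted p = 0.0655). By library totals the count became 2 higher and 3 lower with a median of -0.0271, so the balance of this list depends on the scaling.

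In the libraries labelled knockout 1 of these 10 genes rose and none fell, 9 of 10 had a positive value, and their median was 0.11. The shares over all genes were 3.63% higher and 3.78% lower for loss, and 0.0136% passed for gain. With L3mbtl3 gain 0 of 10 passed with edgeR, and Ebp was at -0.31 (adjusted p = 0.631).

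**Figure D4:**
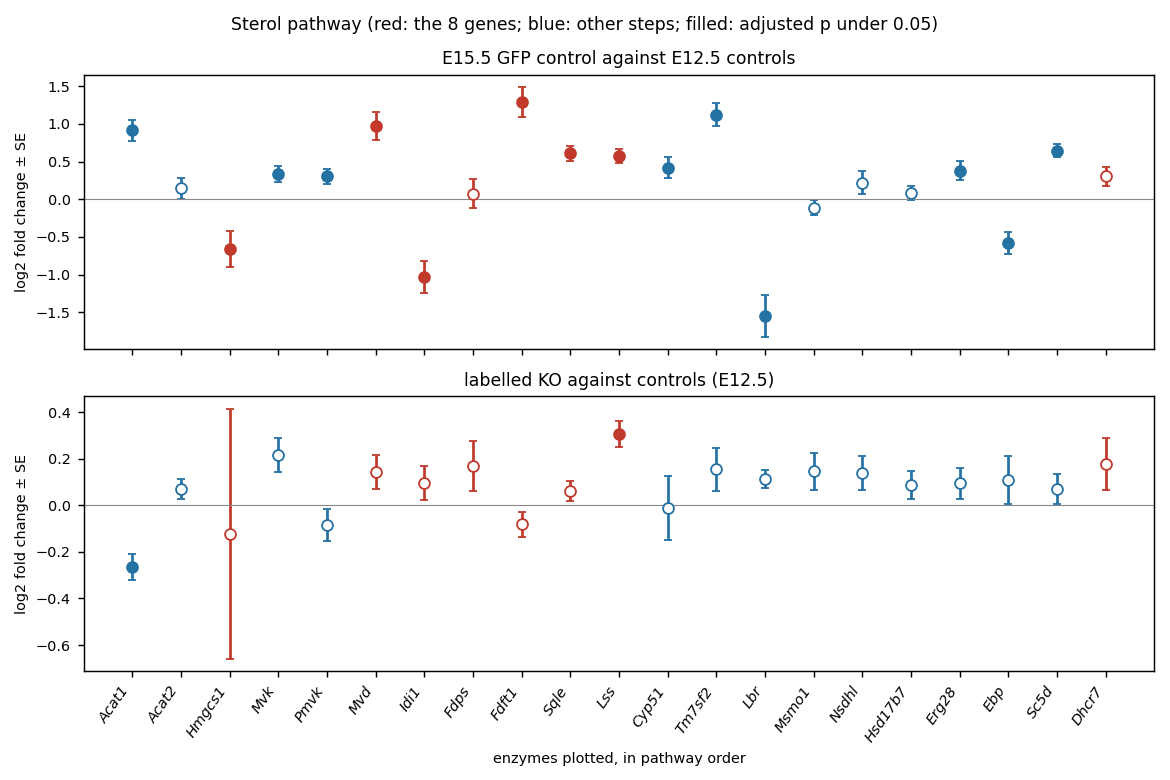
Log2 fold change ± SE of the 8 genes and 13 other enzymes in pathway order from acetyl-CoA to cholesterol, for E15.5 against E12.5 controls (top) and the libraries labelled knockout against E12.5 controls (bottom). The 8 genes are red and other steps blue, filled where the adjusted p was under 0.05. In the lower plot the filled points are Acat1 (below 0) and Lss (above 0). Acat1, the mitochondrial thiolase, is drawn before Acat2, the cytosolic one.

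The sensors and processing factors of the SREBP pathway were followed in a list of 12. Between E15.5 and E12.5 controls 8 rose and 1 fell, with a median of 0.39, and by library totals 4 rose and 3 fell. With TMM, 31.1% of all genes rose and 31.3% fell between stages. For loss 3.63% rose and 3.78% fell, and for gain 0.0136% passed. Srebf2, which encodes SREBP2 itself, rose 1.81-fold (log2 0.86, SE 0.07, adjusted p = 0.000137). It stood at 347.4, 328.6 and 345.1 CPM in the GFP controls and at 194.8, 193.0 and 177.5 CPM in the E12.5 controls. Insig1, which holds the SREBP complex in the endoplasmic reticulum and is itself a target, rose 1.89-fold (adjusted p = 0.000520). Scap, the sterol sensor that escorts SREBP, rose 1.49-fold. In the libraries labelled knockout Srebf2 was the 1 of 12 that rose, at 205.7 and 222.0 CPM against 177.5 to 194.8 CPM (log2 0.18, SE 0.05, adjusted p = 0.0360). That call was lost without heterozygote 2 (adjusted p = 0.0714), knockout 2 (adjusted p = 0.233) and the wild-type (adjusted p = 0.129). With L3mbtl3 gain 0 of 12 passed. Mbtps2, a protease that frees SREBP from the membrane, was at 82.40, 84.17 and 79.81 CPM against 67.22, 63.28 and 63.60 CPM (log2 0.35, adjusted p = 0.463), without overlap, and passed with DESeq2 (adjusted p = 0.0420) and without GFP control 1 (adjusted p = 0.0492). Erlin2 (-0.19, adjusted p = 0.566) was the other gene with the smallest p.

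Receptors and carriers of cholesterol moved both ways between stages, 6 of 12 up and 4 down with a median of 0.20, and 4 up and 5 down by library totals (median -0.0720). With TMM, 31.1% of all genes rose and 31.3% fell between stages. For loss 3.63% rose and 3.78% fell, and for gain 0.0136% passed. The apolipoprotein E and reelin receptors Lrp8 and Vldlr rose 2.68-fold and 2.30-fold, and the endosomal carrier Stard3 rose 2.06-fold. Stard4, a cytosolic sterol carrier and known SREBP2 target, fell to 0.447 of the E12.5 level, at 45.49, 40.51 and 38.15 CPM against 94.46, 96.12 and 87.99 CPM. In the libraries labelled knockout 1 of 12 rose and 1 fell. The gene that fell was Lrp8 (149.2 and 151.4 CPM against 165.0, 185.0 and 176.0 CPM; log2 -0.22, SE 0.05, adjusted p = 0.0175). The Lrp8 call was lost without heterozygote 2 (adjusted p = 0.0670), knockout 2 (adjusted p = 0.0541) or the wild-type (adjusted p = 0.0678). With gain 0 of 12 passed; Lrp1 was at 0.41 (adjusted p = 0.566, and 0.0438 without GFP control 1) and Mylip at -0.60 (adjusted p = 0.568).

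Among genes of sterol efflux, esterification and hydroxylation, 5 of 10 tested fell and 2 rose between stages, with a median of -0.84, where 31.3% of all genes fell and 31.1% rose. The 4 with the largest changes all fell. Cyp27a1 (log2 -3.11) and the oxysterol receptor Nr1h3 rested on few reads, with 6, 5 and 0 counts of Cyp27a1 in the GFP controls against 61, 29 and 36 in the E12.5 controls, and 11, 7 and 2 counts of Nr1h3 against 50, 37 and 23. The call of Nr1h3 (log2 -2.12) was lost without heterozygote 1 (adjusted p = 0.0543) or heterozygote 2 (adjusted p = 0.0570). Apoe (log2 -1.46) and Cyp46a1 (-1.12) followed. Summed microglial markers (10 genes) were 34.5 to 64.6 CPM in the GFP controls and 78.1 to 87.7 CPM in the E12.5 controls, and their part in these falls was not tested. Apoe, the main apolipoprotein of the brain, was also the 1 of 11 that changed in the libraries labelled knockout. Over all genes 3.63% rose and 3.78% fell in that comparison. Apoe fell there from 76.33, 85.94 and 78.17 CPM to 53.10 and 41.28 CPM (log2 -0.76, SE 0.11, adjusted p = 0.00679). That call was lost with all 11 libraries in 1 fit (adjusted p = 0.555). Microglial markers were 74.9 and 82.8 CPM in the libraries labelled knockout, close to the controls. Choroid plexus markers (7 genes) were 260 and 263 CPM there against 546 to 621 CPM in the controls. The part of both marker sets was not tested. With gain Apoe stood at 15.45, 12.27 and 10.47 CPM against 23.65, 30.01 and 33.24 CPM, without overlap (log2 -1.18, adjusted p = 0.457 with edgeR, 0.000171 with DESeq2, and 0.0420 with edgeR without GFP control 1). Microglial markers there were 14.4 to 22.0 CPM, against 34.5 to 64.6 CPM in the GFP controls, and their part was not tested. Soat1 (0.27, adjusted p = 0.648) was the other gene with the smallest p, and 0 of 8 passed with edgeR. By the same test 0.0136% of all genes passed.

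Fatty acid synthesis, which shares the SREBP factors, gave 4 rises and 3 falls among 13 genes between stages, with a median of -0.000811. The shares over all genes were 31.1% higher and 31.3% lower. For loss 3.63% rose and 3.78% fell, and for gain 0.0136% passed. Me1 rose 2.27-fold, Fads1 1.54-fold and Fasn, the fatty acid synthase, 1.45-fold, while Acacb fell (27, 8 and 1 counts in the GFP controls against 113, 56 and 64; log2 -2.35, adjusted p = 0.0274). By library totals 3 rose and 4 fell, with a median of -0.273. The Acacb call was lost without GFP control 2 (adjusted p = 0.0910), heterozygote 1 (adjusted p = 0.0925), heterozygote 2 (adjusted p = 0.0710) or the wild-type (adjusted p = 0.0721). In the libraries labelled knockout Fasn was the 1 of 13 that rose, at 449.5 and 525.3 CPM against 425.0, 393.3 and 389.3 CPM (log2 0.28, SE 0.07, adjusted p = 0.0373), a call lost without heterozygote 2 (adjusted p = 0.113), knockout 2 (adjusted p = 0.11) or the wild-type (adjusted p = 0.119). With gain 0 of 13 passed, with Elovl6 at 0.31 (adjusted p = 0.486) and Me1 at -0.72 (adjusted p = 0.519).

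Of 11 genes that spend isoprenoids, 2 rose and 2 fell between stages, with a median of 0.12, and 1 rose and 4 fell by library totals, with a median of -0.148. With TMM, 31.1% of all genes rose and 31.3% fell between stages. The Rab prenylation subunits moved apart, Rabggta up 1.73-fold and Rabggtb down to 0.597. Pggt1b, the geranylgeranyl transferase subunit, fell to 0.626, a call lost without heterozygote 1 (adjusted p = 0.0759), heterozygote 2 (adjusted p = 0.0644) or the wild-type (adjusted p = 0.0643). Nus1, of dolichol synthesis, rose 1.18-fold, but its sign turned by library totals (log2 -0.0298), and the call was lost without GFP control 2 (adjusted p = 0.0741), heterozygote 1 (adjusted p = 0.102), heterozygote 2 (adjusted p = 0.0796) or the wild-type (adjusted p = 0.152). None of the 11 passed in the other comparisons, where 7.41% (loss) and 0.0136% (gain) of all genes passed. The smallest p-values there belonged to Fntb (0.15, adjusted p = 0.187) and Rabggtb (-0.10, adjusted p = 0.315) for loss, and to Coq2 (-0.38, adjusted p = 0.578) and Rabggtb (0.24, adjusted p = 0.610) for gain.

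The mean pattern of the 8 genes over the 11 libraries was compared with that of 17710 genes, as the Euclidean distance between log2 CPM values centred on each gene's mean. The most alike genes outside the lists were Ccz1 (distance 0.182), Sec61a1 (0.183), Fyttd1 (0.185), Ak6 (0.191) and Qrich1 (0.192), where the median gene was at 1.70. Ccz1, the closest, ran from 79.83 to 101.5 CPM over all libraries, so the averaged pattern of the 8 genes was nearly flat. Measured against the mean of the other 7, Dhcr7 was the closest (0.410), followed by Fdps (0.618), Sqle (0.700) and Lss (0.726), while Mvd (1.21), Hmgcs1 (1.83), Fdft1 (2.12) and Idi1 (2.61) lay farther away. The summed level of the 8 genes overlapped between ages (1048 to 1277 CPM at E15.5 and 891.2 to 1371 CPM at E12.5), and Hmgcs1 was its largest part in each library. Without Hmgcs1 the sum was 587.8 to 761.5 CPM in the 6 E15.5 libraries and 383.8 to 445.3 CPM in the 5 E12.5 libraries, and these ranges did not overlap.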

How the data were processed

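Poly(A)-selected, stranded, single-end libraries of 75 bases were sequenced, per the labels' protocols. The deposited values are raw read counts per gene from featureCounts 2.0.1, reversely stranded over exons, per the file headers. HISAT2 2.2.1 and GRCm38 are named in the submitters' processing notes, and no source used here gives the annotation release. Symbols matched 45143 of 46078 identifiers. The other 935 held 0.1117% of counts. Counts were tested with edgeR 4.0.16 in R 4.3.3 (robust quasi-likelihood fit, TMM, filterByExpr, two-sided, Benjamini-Hochberg over all genes tested, threshold 0.05), after a test on simulated data. SE is the absolute log2 fold change divided by the square root of F. Fold changes come from each comparison's own fit. Alternatives used DESeq2 1.42.0, limma 3.58.1 voom quality weights, library totals, no filter, all 11 libraries, a replicate block, a sex term, and each library left out. Copies were searched with BLAST 2.17.0. From each gene list, up to 4 called genes with the largest change are named, or the 2 with the smallest p where none was called, and some gene values beyond this rule were chosen after they were seen. The values of a few list genes are not reported here, though counts and medians include them. The members and lists were chosen with earlier results of these data known. Floors reflect counting error alone, because the reads carry no molecular identifiers.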

Additional observations from a re-analysis of the deposited data

How the results depend on the processing

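None of the 8 genes passed in the gain comparison under any alternative, and Lss passed in the loss comparison under each but 1. With all 11 libraries in 1 fit, 6 genes and 0 of the 8 passed in the loss comparison. Without the filter on low counts 2266 genes and 2 of the 8 (Lss and Dhcr7) passed there, and with a sex term 654 genes. Knockout 2 is the only female library in the loss comparison, so the sex term fits that library alone. This fit comes close to leaving out knockout 2 and cannot separate embryo sex from that library. With the sex term and without knockout 2, the log2 values were -0.213 and -0.214 for Acat1 and 0.130 and 0.128 for Srebf2. They were -0.227 and -0.228 for Lrp8 and 0.162 and 0.161 for Fasn. The calls of these genes were lost in both fits. The fit of all 11 libraries also ended these calls, and that of Apoe (adjusted p = 0.555). With 1 library left out, 603 to 1785 genes passed in the loss comparison. In the gain comparison 122 genes passed with DESeq2, 2120 with voom weights and 1 with a sex term. With 1 library left out, 0 to 415 passed, the 0 without GFP control 2 (edgeR, 693 at an unadjusted p under 0.05) and the 415 without GFP control 1. Small gain values changed sign: Fdft1 with voom weights (0.0709), and with a sex term Idi1 (0.102), Fdps (0.188), Fdft1 (0.0840), Sqle (0.0973) and Dhcr7 (0.139), a fit in which gain replicate 2 is the only male gain library. With 1 library left out, the gain value ran from -0.0576 to 0.0974 for Hmgcs1, -0.229 to 0.124 for Idi1, -0.211 to 0.0995 for Fdps, -0.179 to 0.216 for Fdft1, -0.0838 to 0.0492 for Sqle, -0.000203 to 0.143 for Lss and -0.148 to 0.0158 for Dhcr7. In the loss comparison Hmgcs1 was at 0.318 with a sex term and at -0.765 to 0.316 with 1 library left out. Between stages, library totals turned Fdps (-0.209) and Nus1 (-0.0298), Fdps ran from -0.0938 to 0.206 with 1 library left out, and the Hmgcs1 call was also lost without the filter, with voom weights and with all 11 libraries. Dhcr7 passed between stages with voom weights (0.338) and with all 11 libraries (0.306). In the lists, DESeq2 called 2 SREBP regulators, 2 efflux genes and 2 fatty acid genes in the loss comparison, where edgeR called 1 of each, and 1 regulator and 1 efflux gene in the gain comparison, where edgeR called 0. The cause of these changes was not tested. Where leaving out 1 library left a single library in an arm, that library was assumed to vary like the other group.

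Whether replicate numbers pair the samples was not settled by the correlation of deviations over all genes, and Hmgcs1 at E12.5 divided by number. Same-numbered gain and GFP libraries had correlations of 0.148, -0.0110 and 0.175, and differently numbered ones of -0.206 to 0.0702. Heterozygote and knockout libraries had 0.00666 with the same number and -0.00666 otherwise. Centring on the mean of 2 libraries per group makes these values equal apart from sign, so they cannot decide the question. A replicate block gave 3 called genes for gain (2 without it), 948 for loss (1213) and 10529 for stage (9955), and 0, 1 and 6 of the 8 genes passed, as without it. The block ended the loss calls of Srebf2 (adjusted p = 0.0622) and Fasn (0.0765) and the stage call of Nus1 (0.0667). Under the block the gain value of Idi1 was 0.00189 and of Fdft1 0.00767, and the stage value of Fdps was -0.127. GFP control 2 did not correlate best with its own number.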

Other observations

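Hmgcs1 lies between Ccl28 upstream and Nim1k and Zfp131 downstream on chromosome 13. Ccl28, which encodes a chemokine, was at 2.90 CPM in heterozygote 2 and 1.40 CPM in knockout 2, the libraries with low Hmgcs1, and at 4.86, 5.53 and 4.90 CPM in heterozygote 1, knockout 1 and the wild-type. Nim1k (7.61 to 9.47 CPM) and Zfp131 (87.8 to 111 CPM) did not divide the E12.5 libraries in that way. At E15.5 Ccl28 ran from 1.06 to 17.9 CPM in the GFP controls and from 1.44 to 10.4 CPM in the gain libraries, with no matching division in Hmgcs1. These neighbours were chosen after the Hmgcs1 values were seen, and no test was made.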
